A study of Zea mays with 6 samples.

Results

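A stretch of the short arm of chromosome 4 of maize holds a run of short, single-transcript genes, 10 to 11 of which were among the 50 most abundant loci in each smk8-ref library and 3 to 5 in each WT library. Their summed mean level was 3.60-fold higher in the mutant smk8-ref than in wild type (WT). The stretch runs from 5846538 to 6359146 on chromosome 4 and spans 513 kb. Its ends were set at the short genes Zm00001d048807 and Zm00001d048852. A further short gene on the plus strand, Zm00001d048806, lies 10220 bp before it and is described below. Of 31 loci that the deposited table lists there, 22 reached a level of at least 1 FPKM (fragments per kilobase of transcript, normalized by the authors for library size) in any library and are the members described here, out of 36781 loci in the whole table. Single-transcript loci of 390 to 810 bp form one class of 15 members, called short loci below, and the other 7 members form the second. The members were chosen by their measured level in any library, their position and, for the class, their length, so these are given as descriptions. The difference between genotypes is not part of the rule.

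The libraries came from endosperm at 12 days after pollination, 3 from WT and 3 from smk8-ref, the reference allele of a maize mutant. No other allele, background line or treatment is given in the labels. The endosperm is the storage tissue of the kernel. The design addresses which endosperm transcripts differ between the mutant and WT.

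Tandem clusters form when a gene is copied next to itself, commonly by unequal crossing over, and the copies stay in one orientation and diverge slowly. In cereal endosperm many seed storage protein genes are of this kind: short, mostly without introns, present in many neighbouring copies and very strongly transcribed during grain filling. The deposited table gives 0 of the 31 loci a gene name, and the RefSeq gene table matched 0 of their identifiers, so no protein is assigned to any of them here. No sequences of these loci were compared, so that they are copies of one gene was not tested; the run is described by position, strand, length and level. Where loci are very similar they also share sequencing reads, and the division of reads among them by the authors' quantification is uncertain. The sum over such loci does not depend on that division as long as the reads stay within the set.

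The FPKM values summed to between 287260 and 321002 per library, and read totals are not used here, so the depth behind a value is unknown. Over the 15858 loci with at least 1 FPKM in 3 or more libraries, a first principal component with 44.4% of the variance divided the genotypes. On it WT replicate 3 lay closest to smk8-ref, with a score of -19.8 against -44.6 and -33.9 for the other WT libraries, and its score on the second component was the most extreme. FIE1, a Polycomb gene known for its expression in endosperm, was measured in all libraries, at 16.4 to 38.8 FPKM. The fixed list of embryo and meristem markers (KN-1, OBAP2A, OBAP2B and OBAP1A, all 4 measured) summed to 20.7, 26.2 and 68.0 FPKM in the WT libraries and to 89.1, 59.1 and 77.6 FPKM in the smk8-ref libraries, here and below in the order of replicates 1, 2 and 3. KN-1, the meristem gene of the list, stood at only 0.0327 to 1.57 FPKM, so the sum is nearly all from the OBAP genes. In bulk tissue, more cells of a type and more RNA per cell cannot be told apart. The libraries are described as biological repeats without naming ears or plants, so a p-value here reflects only how these libraries vary.

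Of the 15 short loci, 14 lie on the plus strand and 1, Zm00001d048826, on the minus strand. The 14 plus-strand loci fall into 2 groups. The first group holds 8 loci over 94.1 kb and the second holds 6 loci over 66.4 kb, with 352 kb between them. All 7 other members and Zm00001d048826 lie in that gap. Among the 14, 5 loci span 801 bp, 2 span 804 bp, 5 span 705 bp, 1 spans 540 bp and 1 spans 399 bp. All 5 loci of 705 bp are in the second group and all 5 loci of 801 bp are in the first. In the second group the last 4 loci, Zm00001d048849 to Zm00001d048852, start 4439, 4440 and 4462 bp apart, a near-constant step. The spans of all 15 short loci are multiples of 3, as are those of 81.7% of the 935 loci of the same form elsewhere in the table that reached 1 FPKM. Whether the models hold introns or untranslated regions was not analysed here.

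**Figure D1:**
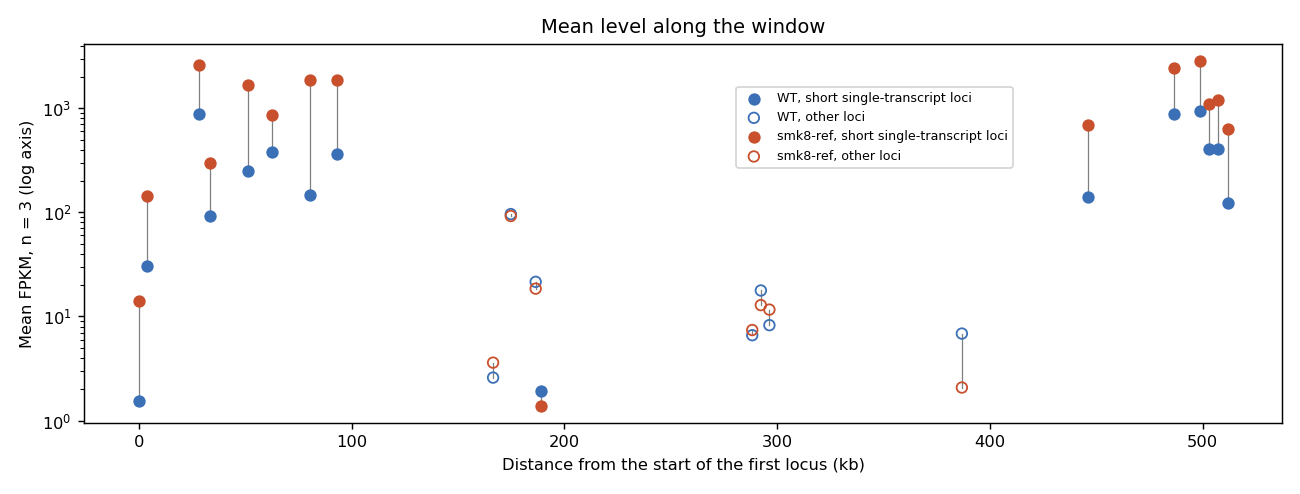
Mean FPKM (log axis, n = 3) of the 22 members by distance from the start of the first locus in kb; filled points are the 15 short single-transcript loci and open points the 7 other loci, with WT in blue and smk8-ref in orange. The 14 plus-strand short loci form a group at each end, where the smk8-ref mean lies above the WT mean at each locus, while the loci between them stay below 100 FPKM.

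Summed over the 15 short loci, the level was 7637, 4566 and 2974 FPKM in WT and 23567, 17235 and 13809 FPKM in smk8-ref. The lowest smk8-ref library lay 1.81-fold above the highest WT library, so the genotypes did not overlap. The means were 5059 ± 2370.5 FPKM (SD, n = 3) in WT and 18204 ± 4950.3 in smk8-ref, a ratio of 3.60. These loci held 0.937% to 2.38% of the FPKM sum in WT libraries and 4.70% to 7.72% in smk8-ref libraries. Of the 50 most abundant loci, 5, 3 and 3 were short loci of this window in the WT libraries, and 11, 11 and 10 in those of smk8-ref. WT replicate 3, the WT library with the highest embryo marker sum, had the lowest summed level of these loci, while smk8-ref replicate 1 had the highest of both. Without WT replicate 3 the log2 ratio of the summed means was 1.58, against 1.85 with all libraries. The part of the embryo markers in the result was not tested.

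**Figure D2:**
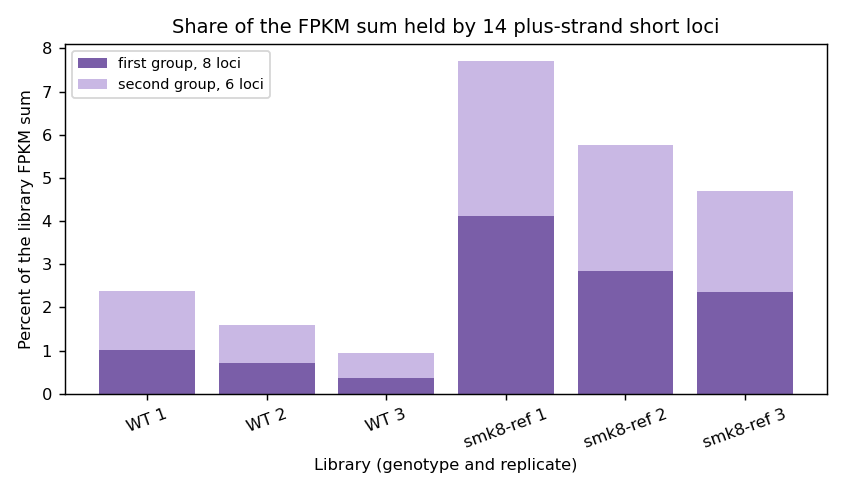
Percent of each library's FPKM sum held by the 14 plus-strand short loci, stacked by the first group of 8 loci (dark) and the second group of 6 loci (light). The 3 smk8-ref bars reach 4.70% to 7.72%, above the WT bars, which reach 0.937% to 2.38%.

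Per locus, 9 of the 15 short loci rose in smk8-ref at an adjusted p of 0.05, none fell and 6 did not pass (limma on log2(FPKM + 1), Benjamini-Hochberg over all 15858 loci). Of all tested loci 3.39% were called higher and 4.21% lower. The median log2 change was 1.74 over the 15 short loci and 0.054 over all tested loci. The 3 smk8-ref values lay above the 3 WT values at 14 of the 15, where 18.7% of all tested loci did so. All 22 members passed the filter on low values. Unadjusted p-values were under 0.05 at 14 of the 15 and at 28.3% of all tested loci. The calls depended on having all 6 libraries: their number was 1, 1 and 3 when smk8-ref replicate 1, 2 or 3 was left out, and 4, 4 and 8 when WT replicate 1, 2 or 3 was left out. The calls over all loci split into 538 higher and 667 lower as deposited, 304 and 1114 with TMM scaling, and 807 and 511 when libraries were rescaled to the sum outside the window; 7 and 12 short loci rose under these scalings.

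**Figure D3:**
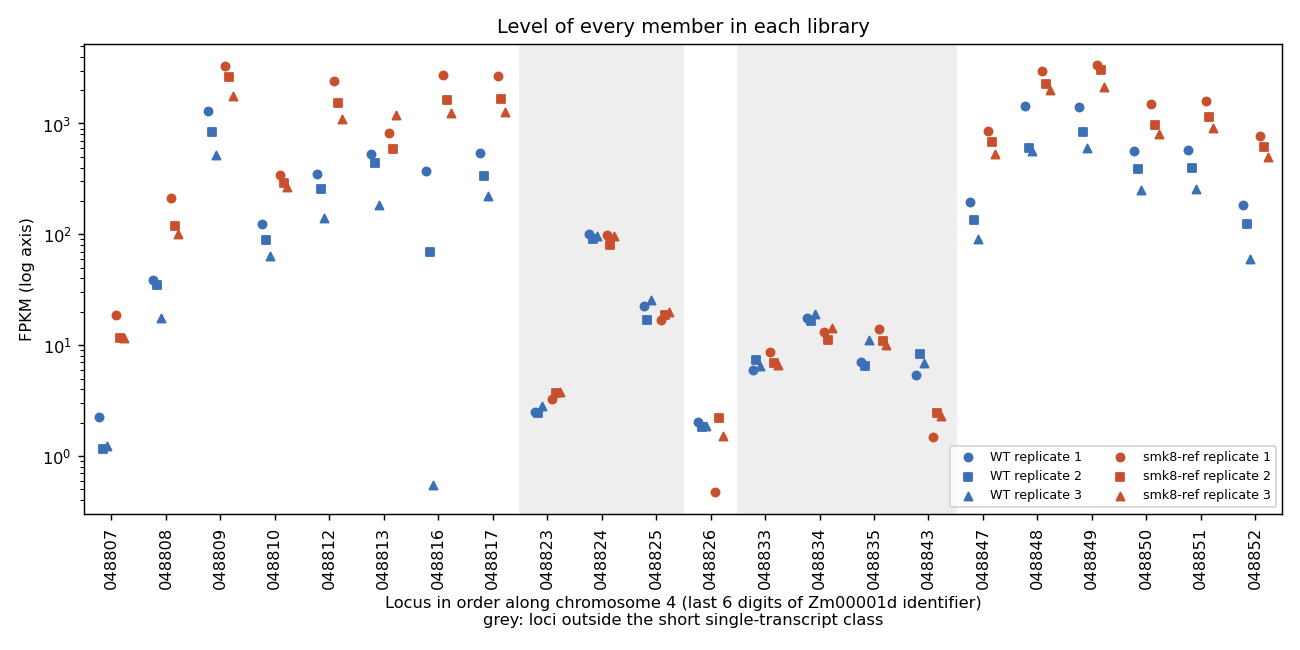
FPKM (log axis) of the 22 members in each of the 6 libraries, in order along the chromosome; blue is WT, orange is smk8-ref, symbols mark the replicate, and grey bands mark the 7 loci outside the short class. At the 14 plus-strand short loci every smk8-ref point lies above every WT point, and Zm00001d048816 spreads from 0.545 to 374 FPKM within WT.

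The most abundant member by its mean was Zm00001d048849 (chromosome 4, 6345101 to 6345805), in the second group. It stood at 1396, 846 and 602 FPKM in WT and 3347, 3018 and 2127 FPKM in smk8-ref, without overlap. It rose by a log2 change of 1.64 ± 0.34 (SE, limma adjusted p = 0.038), and was the 14th most abundant locus of the table by its mean. Its neighbour Zm00001d048848 (6333303 to 6334007) stood at 1453, 599 and 569 FPKM in WT and at 2959, 2284 and 2010.3 FPKM in smk8-ref. Its groups did not overlap either, but its log2 change of 1.59 ± 0.38 missed the threshold (limma adjusted p = 0.053).

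Zm00001d048850 (6349540 to 6350244) and Zm00001d048851 (6353980 to 6354684) had almost the same level in every library. The first stood at 565, 391 and 253 FPKM in WT and 1496, 978 and 807 in smk8-ref. The second stood at 579, 394 and 256 FPKM in WT and 1581, 1156 and 903 in smk8-ref. Zm00001d048851 rose (log2 change 1.60 ± 0.34, limma adjusted p = 0.039), while Zm00001d048850 lay at the threshold (1.46 ± 0.35, adjusted p = 0.0501); their ratio stayed between 1.01 and 1.18 in all 6 libraries, so the calls do not set these loci apart.

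The remaining loci of the second group lay at its outer ends, and their levels were lower. Zm00001d048847 (6292792 to 6293595) stood at 196, 134 and 90.1 FPKM in WT and 854, 685 and 536 in smk8-ref, and rose by 2.34 ± 0.30 (log2, limma adjusted p = 0.019). Zm00001d048852 (6358442 to 6359146) stood at 183, 125 and 60.2 FPKM in WT and 777, 617 and 496 in smk8-ref, and rose by 2.47 ± 0.40 (adjusted p = 0.024). At both loci the lowest smk8-ref library was more than 2.7-fold above the highest WT library (2.74-fold and 2.71-fold).

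In the first group the most abundant locus was Zm00001d048809 (5874886 to 5875686). It stood at 1305, 847 and 515 FPKM in WT and 3324, 2646 and 1763 in smk8-ref, and its log2 change of 1.59 ± 0.39 missed the threshold (limma adjusted p = 0.053). Zm00001d048817 (5939853 to 5940653) stood at 536, 339 and 220.3 FPKM in WT and 2674, 1675 and 1273.5 in smk8-ref. It rose by 2.38 ± 0.39 (log2, limma adjusted p = 0.025). Zm00001d048812 (5897751 to 5898554) stood at 352, 259 and 139 FPKM in WT and 2398, 1530.1 and 1089 in smk8-ref. Its rise of 2.76 ± 0.41 (limma adjusted p = 0.022) was the largest among the called members on the log2(FPKM + 1) scale. By the ratio of means, Zm00001d048807 rose more, at 9.09 against 6.69 for Zm00001d048812.

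Zm00001d048816 (5927153 to 5927953) had the largest log2 change of all members and did not pass. It stood at 374, 69.5 and 0.545 FPKM in WT and at 2756, 1628 and 1234 FPKM in smk8-ref. The 3 WT libraries thus spread over 686-fold, where the median spread among the 14 plus-strand loci was 2.38-fold, while the smk8-ref libraries stood close to those of its neighbour Zm00001d048817. Its log2 change was 5.68 ± 1.79 (limma adjusted p = 0.099). It passed in 1 of the 16 alternative settings run, the one without WT replicate 3, its lowest library (3.45, limma adjusted p = 0.044). Over the 16 the limma adjusted p reached 0.228. Zm00001d048813 (5909078 to 5909878) stood at 531, 436 and 185 FPKM in WT and 827, 593 and 1189 in smk8-ref, the smallest log2 change of the 14 (1.25 ± 0.43, adjusted p = 0.12).

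The first group also held the plus-strand short loci with the lowest means. Zm00001d048807 (5846538 to 5847338) stood at 2.23, 1.15 and 1.24 FPKM in WT and 18.9, 11.5 and 11.6 in smk8-ref, and rose by 2.55 ± 0.25 (log2, limma adjusted p = 0.014). It was the single member that kept its call in all 16 alternative settings run. Zm00001d048808 (5850648 to 5851046) stood at 38.4, 35.1 and 17.6 FPKM in WT and 214, 119 and 102 in smk8-ref, and rose by 2.22 ± 0.37 (adjusted p = 0.025). Zm00001d048810 (5880093 to 5880632) stood at 124, 89.0 and 63.9 FPKM in WT and 339.6, 293 and 268 in smk8-ref, and rose by 1.74 ± 0.24 (adjusted p = 0.020). These last 2 are the shortest loci of the run, at 399 and 540 bp.

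**Figure D4:**
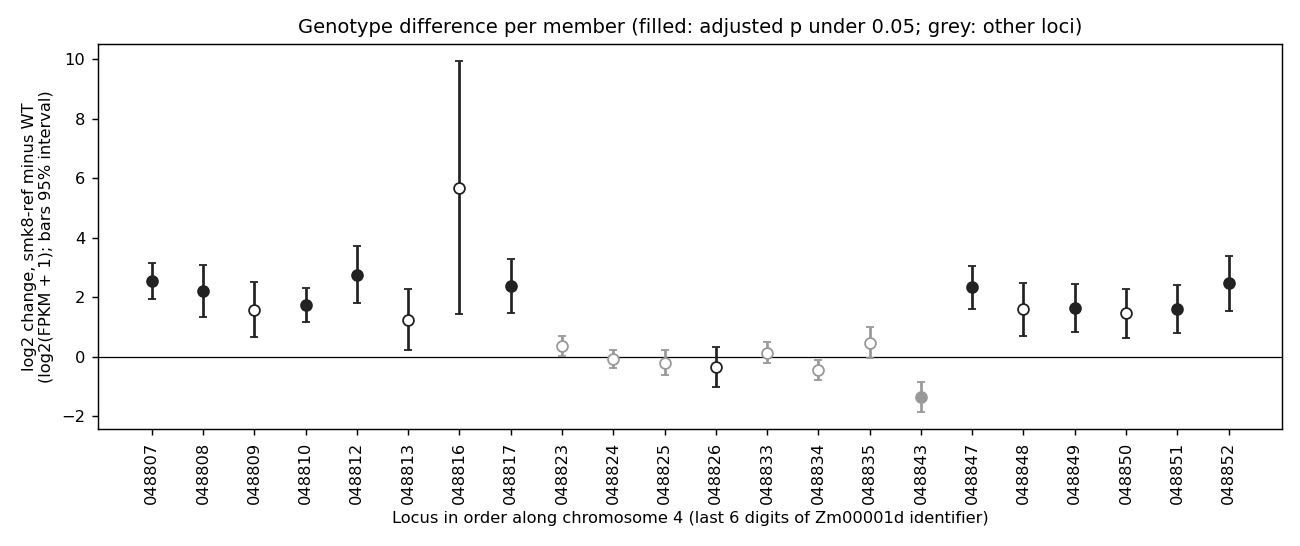
log2 change of each of the 22 members, smk8-ref minus WT on log2(FPKM + 1), with 95% intervals from limma; filled points have an adjusted p under 0.05, black points are short loci and grey points the 7 others. The 14 plus-strand short loci lie between 1.25 and 5.68, and the loci between the groups lie between -1.35 and 0.47.

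The libraries of a genotype differed in level at nearly all plus-strand short loci at once. WT replicate 1 was the highest WT library at 14 of the 14 plus-strand short loci and WT replicate 3 the lowest at 13. In smk8-ref, replicate 1 was the highest at 13 and replicate 3 the lowest at 12. The highest exceeded the lowest library by a median of 2.38-fold in WT and 1.80-fold in smk8-ref. At the 7 other members these spreads were 1.24-fold and 1.29-fold. The 14 loci are therefore not 14 independent observations of the genotype difference.

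The order of the 14 levels was similar between libraries, and the share of the summed level held by each locus is described here. The share was larger in every smk8-ref library than in any WT library at 6 loci, smaller at 4, and overlapped at 4. A share of this sum is not defined for loci outside the run, so no rate over all loci stands beside these counts. Spearman correlations of the 14 levels were 0.899 to 0.991 between libraries of a genotype and 0.692 to 0.886 between genotypes, given as a description because the loci share libraries and may share reads. Zm00001d048849 held 18.3%, 18.5% and 20.2% of the sum in WT and 14.2%, 17.5% and 15.4% in smk8-ref. Zm00001d048809 held 17.1%, 18.5% and 17.3% in WT and 14.1%, 15.4% and 12.8% in smk8-ref. Each of these held a smaller share in every smk8-ref library than in any WT library. The shares of Zm00001d048812 and Zm00001d048817 were larger in every smk8-ref library, at 7.88% to 10.2% against 4.61% to 5.67% in WT for the first and 9.22% to 11.3% against 7.02% to 7.42% for the second. Shares add up to 100%, so a larger share at one locus lowers the others, and these counts are a description. By group, the summed means differed 4.32-fold between genotypes in the first group and 3.06-fold in the second, and the difference between these ratios was not tested.

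**Figure D5:**
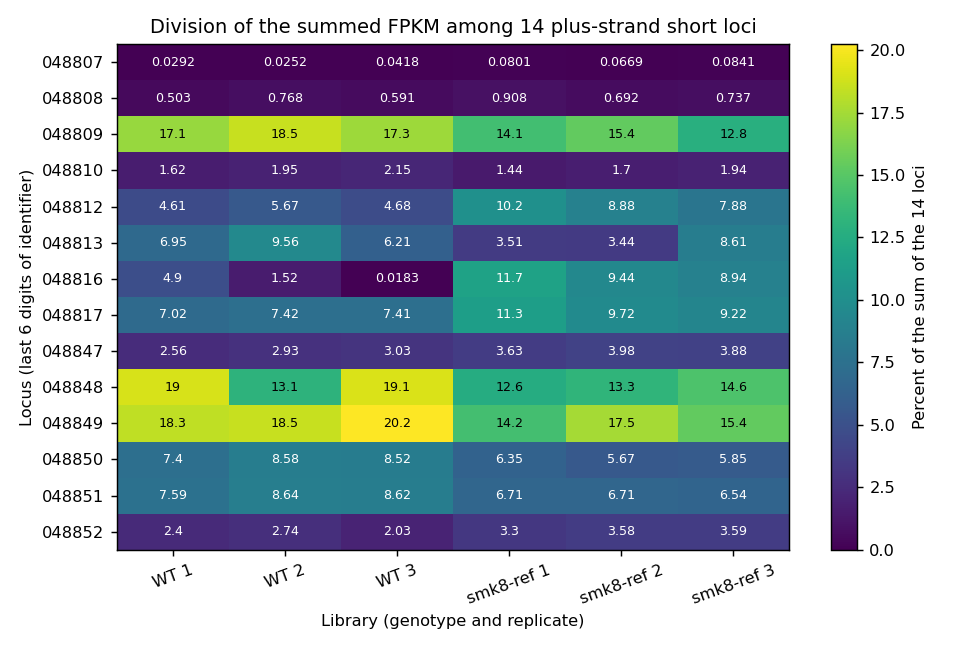
Percent of the summed FPKM of the 14 plus-strand short loci held by each locus (rows, in order along the chromosome) in each library (columns). Zm00001d048809, Zm00001d048848 and Zm00001d048849 hold the most in every library, and Zm00001d048812, Zm00001d048816 and Zm00001d048817 hold more in smk8-ref than in WT.

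The single short locus on the minus strand did not share this pattern. Zm00001d048826 (6035498 to 6036151, 654 bp) stood at 2.02, 1.83 and 1.86 FPKM in WT and 0.469, 2.20 and 1.51 in smk8-ref. Its genotypes overlapped (log2 change -0.35 ± 0.28, limma adjusted p = 0.46). It overlaps the plus-strand locus Zm00001d048825 by 20 bp. Its form meets the rule, but it lies in the gap and on the other strand. Its WT mean of 1.90 FPKM was near the 1.54 of Zm00001d048807, and its smk8-ref mean of 1.39 FPKM was below those of all 14 plus-strand short loci.

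Of the 7 other members, none rose and 1 fell in limma, and 3 had an unadjusted p under 0.05. Zm00001d048843 (6233384 to 6234460), a single-transcript locus of 1077 bp, stood at 5.33, 8.27 and 6.94 FPKM in WT and 1.47, 2.44 and 2.32 in smk8-ref. It fell by 1.35 ± 0.21 on the log2 scale (limma adjusted p = 0.022), and did not pass when any single library except WT replicate 3 was left out. Zm00001d048824, the most abundant of these, stood at 101, 90.9 and 96.4 FPKM in WT and 99.4, 80.9 and 96.4 in smk8-ref, with overlapping genotypes (log2 change -0.065, adjusted p = 0.78). Zm00001d048834 stood at 17.5, 16.5 and 19.2 FPKM in WT and 13.2, 11.0 and 14.3 in smk8-ref. Its groups did not overlap, and it did not pass (log2 change -0.44, adjusted p = 0.098). Of all tested loci 15.9% had smk8-ref values entirely below WT.

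Zm00001d048825, Zm00001d048833 and Zm00001d048835, also in the gap, had overlapping genotypes. The first ranged from 16.7 to 25.4 FPKM in WT and from 16.9 to 19.7 in smk8-ref, the second from 5.93 to 7.33 and from 6.65 to 8.64, and the last from 6.54 to 11.2 and from 9.98 to 13.9. Zm00001d048823 ranged from 2.43 to 2.85 FPKM in WT and from 3.30 to 3.77 in smk8-ref, without overlap and without passing (log2 change 0.36, limma adjusted p = 0.15). The sum of the 7 was 160 ± 10.1 FPKM (SD, n = 3) in WT and 148 ± 11.7 in smk8-ref. Within Zm00001d048833 the transcripts differed in direction, which was noticed after the values were seen: transcript T001 stood at 1.43, 0.771 and 0.443 FPKM in WT and 4.03, 4.80 and 2.22 in smk8-ref, and T002 at 4.33, 5.89 and 5.73 and at 4.06, 1.76 and 4.31.

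At the edges of the rule, the members with the lowest peak values were Zm00001d048826, Zm00001d048823 and Zm00001d048843, at 2.20, 3.77 and 8.27 FPKM in their highest library. The loci just below the level threshold were Zm00001d048829, Zm00001d048839 and Zm00001d048815, at 0.747, 0.705 and 0.476 FPKM. Zm00001d048815 has the short form and lies on the minus strand inside the first group. At the edge in position, Zm00001d048806 (5835517 to 5836317) lies 10220 bp before the window, on the plus strand, with a span of 801 bp. It stood at 0.0833, 0.277 and 0.244 FPKM in WT and at 34.3, 3.77 and 1.73 FPKM in smk8-ref. It did not pass (log2 change 2.69 ± 0.86, limma adjusted p = 0.10). It met the filter of 1 FPKM in 3 libraries only through smk8-ref, so that its groups do not overlap was fixed by the filter. On the other side the nearest locus of the table lies 83823 bp after the window.

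Neighbouring stretches of the same length were sparsely transcribed. The stretch before the window had 7 loci at 1 FPKM or more, of which none rose and 1 fell in limma. At an unadjusted p under 0.05, 3 of these were higher, Zm00001d048806 among them. The stretch after the window had 3 such loci, of which none passed (1 at an unadjusted p under 0.05). Their highest means were 22.0 and 4.73 FPKM. Of the 687 tested single-transcript loci of 390 to 810 bp outside the window, 39 (5.68%) rose and 53 fell, with a median log2 change of -0.0029. Among these, 54 had a mean of at least 100 FPKM, with a median log2 change of -0.40 and 5 rises. In the window 12 short loci reached that mean, with a median log2 change of 1.69 and 7 rises. The mean is over all 6 libraries, so it includes the values compared. Among the rises, Zm00001d048810 had a WT mean of 92.3 FPKM and reached the limit through smk8-ref. Over all tested loci at that mean, 22 of 401 rose and 111 fell, with a median of -0.44. The difference between these sets was not tested.

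The authors' deposited table marks all 14 plus-strand short loci as up and Zm00001d048826 as no change. In the authors' deposited table their log2 fold changes run from 1.81 to 9.58, and 12 of the 14 have a p-value under 0.05. The rates of such marks and p-values over all deposited transcripts are not given here, and the libraries are the same. These fold changes are not ratios of the mean FPKM. For Zm00001d048848 the deposited value is 6.75 against a ratio of means of 2.77, and for Zm00001d048807 it is 9.37 against 9.09. The smallest q-value among them in the authors' deposited table is 0.549.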

How the data were processed

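Endosperm RNA was extracted with Trizol and made into Illumina libraries, per the labels' protocols. The submitters' processing notes name HISAT, an aligner, and StringTie, which quantifies transcripts; version, settings and genome build: not given in the sources used here. FPKM values of 86771 transcripts in each library are held by 1 table, used as the authors deposited it. Contig names there begin with B73V4, and coordinates are those of the table, 1-based as printed in it. The authors' deposited fold change (ratio), log2 fold change, p-value and q-value are quoted only as theirs; their model is not stated.

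Transcript FPKM was summed by locus (the identifier without its transcript number). Loci with at least 1 FPKM in at least 3 of 6 libraries were fitted with limma 3.58.1 (R 4.3.3) on the log2(FPKM + 1) scale (variance trend, two-sided, Benjamini-Hochberg, threshold 0.05); a pseudocount of 1 understates changes of low loci. No count test was run, and no interval for counting error is given. The fit was also run on simulated data with independent noise at each locus, so that run does not cover loci that vary together. Its outcome is not given here. Members, classes and tests were chosen with earlier results of these data known. Named loci are the 10 most abundant short loci, all past the threshold, the 3 largest changes each way, the 5 most abundant others and those next to the level threshold; 0 members were at 0 in one library and above 10 FPKM in another of its genotype. Others were named after their values were seen. Of the fixed markers, ESR2 was not matched; ESR1 and ESR3 summed to 4.73 to 6.39 FPKM in WT and 0.909 to 8.51 in smk8-ref (ESR3 alone 3.22 to 4.68 and 0.308 to 1.75, without overlap), CR4 stood at 7.24 to 8.93 and 9.24 to 10.4, and 5 plastid photosynthesis genes summed to 261 to 313 and 234 to 316; of these, psbA was higher in each smk8-ref library (127 to 138 and 154 to 194), psbB, psbH and psaC were lower in each, and psbC overlapped. Alternatives were pseudocounts of 0.1 and 5, filters, TMM (trimmed mean of log ratios, unweighted), quantile and outside-window scaling, no trend, a replicate block, single transcripts and each library left out.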

Additional observations from a re-analysis of the deposited data

How the results depend on the processing

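The 14 plus-strand short loci kept a higher mean in smk8-ref under all alternatives that were run; with non-overlapping groups, leaving out a library or blocking cannot reverse them. The number of called short loci was 9, and ranged from 1 to 8 with 1 library left out and from 6 to 12 otherwise. The number of called other loci was 1, ranged from 0 to 1 with 1 library left out, and was 0 with the replicate block. Over all loci 1205 calls became 388 with no filter, 779 with quantile normalization and 490 among transcripts, and ranged from 28 to 1425 with 1 library left out. With the replicate block 36 of all loci and 6 short loci passed. Over all tested loci, same-numbered libraries correlated at 0.0069, -0.0085 and 0.083 in their deviations. At most plus-strand short loci, replicate 1 was the highest and replicate 3 the lowest library in both genotypes. There the block lowered the SE, as at Zm00001d048812 from 0.41 to 0.16, except at Zm00001d048813 (0.43 to 0.47). These values do not settle whether the numbers pair the libraries. The log2 ratio of the summed short loci was 1.85, between 1.58 and 2.27 in all alternatives; that of the other loci moved from -0.11 to -0.33 with TMM, where the median of all loci moved from 0.054 to -0.12. Uncalled values changed sign for Zm00001d048824 (0.36 with quantile normalization, 0.042 when rescaled, 0.026 without smk8-ref replicate 2) and Zm00001d048833 (-0.052 with TMM). For single members 277 of 344 alternative values kept both their sign and their side of the threshold. Of the rest, 51 lost a call, 12 gained one and 4 changed sign while staying uncalled. The cause was not tested. Depth is unknown, so the precision of low values, such as 0.545 FPKM at Zm00001d048816, cannot be given.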
